A study of Mus musculus with 12 samples.

Results

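The genes described here are 36 mouse genes that act in the repair of DNA double-strand breaks and in the checkpoint that such breaks set off. They were taken by gene symbol from a list of repair genes, and all 36 were found among the 29550 genes with a count. All 36 also passed the filter on low counts that left 18183 genes for testing. Their longest annotated transcripts had a median length of 5.09 kb, from 1.38 kb for H2ax to 12.65 kb for Prkdc, against 3.14 kb for the 13983 protein-coding genes tested.

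RNA-seq counts came from 12 libraries of cells labelled B16F10, a transplantable mouse melanoma line, in 4 groups of 3. Control cells carried the guide sgNC, and sgRnf19a cells carried a guide against Rnf19a, a ubiquitin ligase gene in which the labels call the cells deficient; both kinds were profiled untreated (control, sgRnf19a) or after 24 h of a treatment called IR, which the labels do not spell out and for which they state no dose (control_IR, sgRnf19a_IR). The labels state neither whether the edited cells were a pool or a clone nor whether replicates were grown separately; every p-value therefore reflects library-to-library spread alone, possibly of technical origin. Treated libraries keep their data column's number here, which differs from the replicate number in the labels. Their column names hold a D but do not spell IR; they were taken as the treated groups since every other group was already accounted for.

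A double-strand break is held by the complex of Mre11, Rad50 and Nbs1, which activates the kinase ATM, while single-stranded DNA activates ATR; both kinases signal through the checkpoint kinases Chk1 and Chk2 and mark nearby chromatin by phosphorylating the histone H2AX. Cells then either join the ends directly, through the Ku proteins and DNA-PK, or resect them and copy the sister chromatid by homologous recombination with BRCA1, PALB2 and BRCA2. Many of the genes for resection and recombination are expressed mainly in cycling cells, since a sister chromatid is present only after replication.

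The libraries differed in ways that touch every result below. Untreated libraries held 62.7 M to 71.3 M counts and treated ones 34.3 M to 45.6 M, of which ribosomal RNA genes took 0.408% to 0.813% and 11.4% to 22.2%. The gap in median log2 level between long (over 6 kb) and short (under 1 kb) protein-coding transcripts was 1.22 to 2.15 in untreated libraries, -1.52 to -1.29 in control_IR, and -0.27, -1.11 and 0.65 in sgRnf19a_IR replicates 1, 3 and 4. The last of these libraries stood apart: the repair genes took 0.186% of its counts, against 0.108% and 0.0723% in the other two libraries of its group and 0.0694% to 0.0809% in control_IR. Rnf19a itself was at 21.5 to 33.5 CPM in control and 22.6 to 27.5 CPM in sgRnf19a (CPM, the count scaled to a common library size with TMM factors), and at 4.37 to 8.06 CPM in control_IR and 11.6 to 37.7 CPM in sgRnf19a_IR; since a frameshift can leave mRNA levels untouched, these values do not check the guide. Of 8 melanocyte markers, 4 (Mlana, Slc45a2, Tyr and Tyrp1) were at 0 counts throughout and the 8 summed to 9.53 to 16.4 CPM in untreated libraries, nearly all of it Mitf (11.4 CPM on average in control and 15.9 CPM in sgRnf19a), with few counts of Pmel, Sox10 and Dct. Of 6 epithelial markers, Krt8, Krt18 and Krt19 made up nearly all of a sum of 394 to 1220 CPM, and group means of Epcam, Cdh1 and Cldn4 were at most 1.52 CPM. The pigment genes that define the labelled melanoma line were at or near 0. In bulk RNA, fewer cells of a kind and less RNA per cell cannot be told apart.

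Promoters were compared first, since E2F factors drive many replication and repair genes in S phase. RefSeq promoters (assembly GRCm38.p6, 250 bases before to 50 after the annotated start) were matched for 27 of the 36 genes. The E2F words TTTCCCGC and TTTGGCGC, searched on both strands, occurred in 7 of these 27 (25.9%), namely Bard1, Brca2, Chek2, Mdc1, Msh6, Rad51c and Xrcc6, and in 1.8% of the promoters of 27025 genes. The word CCAAT was in 14 (51.9%, against 41.1% of all promoters) and TTTGAA in 3 (11.1%, against 20.2%), also on both strands; no word contains another, so matches can share end letters alone, and a match is a description of letters, not a site. The stretches around the E2F word of Brca2, Chek2 and Mdc1 are shown because these genes share the same word while their changes with IR, given below, differed widely. Each is written 5′ to 3′ in the direction of the gene, with the E2F word or its reverse complement in capitals; the stretch of Brca2 lies at chr5:150522423-150522490, that of Chek2 at chr5:110839801-110839868 and that of Mdc1 at chr17:35841452-35841497, all on the + strand, starting upstream of the annotated start.
Brca2: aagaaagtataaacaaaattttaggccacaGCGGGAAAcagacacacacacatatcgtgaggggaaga
Chek2: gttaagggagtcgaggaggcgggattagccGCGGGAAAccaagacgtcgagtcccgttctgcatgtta
Mdc1: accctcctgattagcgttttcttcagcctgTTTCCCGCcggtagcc

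In untreated control cells the levels per transcript length spanned a wide range. In FPKM, a unit that divides by length, Msh6, which recognises mismatches, stood highest at 63.5 ± 6.53 (SD, n = 3), followed by H2ax at 41.4 ± 7.27, Xrcc6, the smaller Ku subunit, at 34.3 ± 0.662 and Topbp1, which activates ATR, at 28.3 ± 6.08. The lowest were Brca2 at 2.50 ± 1.22, Xrcc4 at 2.34 ± 0.652, Atr at 1.91 ± 0.689 and Lig4, the end-joining ligase, at 1.40 ± 0.0362. The lengths behind the FPKM values were not stated, and they were not those of the longest transcripts used elsewhere here. Atr had a higher mean CPM than Prkdc (40.3 against 38.1) and a shorter longest transcript (8.1 against 12.65 kb). Its FPKM was nonetheless lower than that of Prkdc (3.24). The order in FPKM thus depends on lengths that could not be checked. Neighbours in this order mostly lay within their SDs of each other, as Brca2, Xrcc4 and Atr did. Among the control libraries, replicate 3 stood lower (30 of 36 genes below the group mean, median -0.16 on the log2 scale and -0.63 for the 11 over 6 kb).

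IR in control cells went with lower levels of most of these genes. Of 36, 30 fell and 1 rose at an adjusted p under 0.05 by edgeR's quasi-likelihood test, where 25.7% of all genes tested fell and 22.2% rose. The median log2 fold change was -1.88, against -0.02 for all genes. The falls reached 20.8-fold for Rif1, 18.5-fold for Wrn and 13.9-fold for Rbbp8, and H2ax was the gene that rose. Rnf8, Rad51c, Xrcc5, Xrcc6 and Xrcc1 did not pass.

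**Figure D1:**
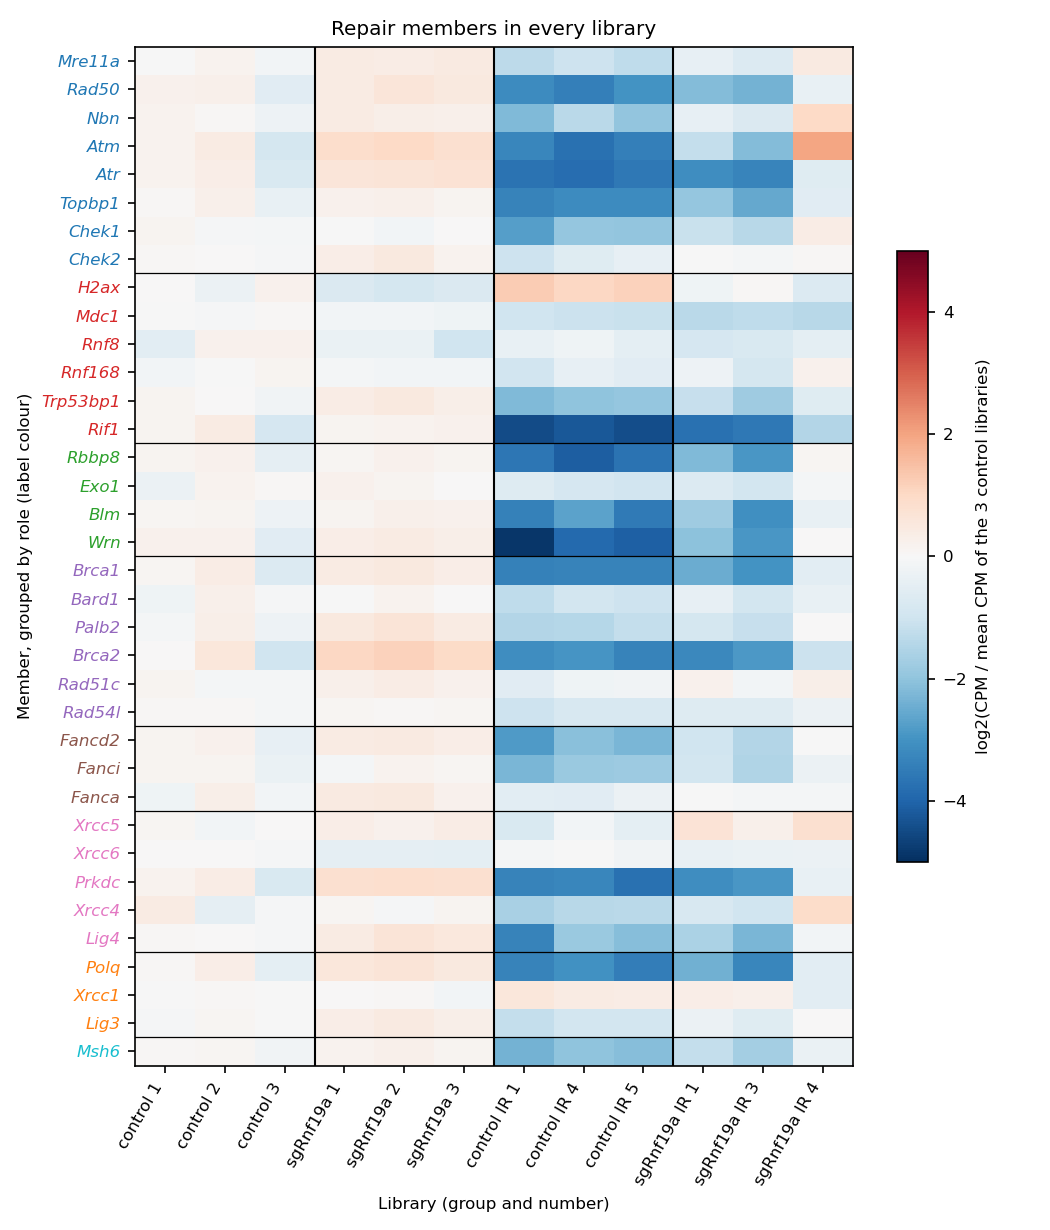
Level of each of the 36 genes (rows, grouped by role) in each of the 12 libraries (columns), as log2 of its CPM over the mean CPM of the 3 control libraries. Blue marks lower and red higher levels; the control_IR columns are blue for most rows except H2ax and Xrcc1, and the last column, sgRnf19a_IR replicate 4, is paler than the other 2 of its group.

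All 8 genes for break sensing and checkpoint signalling fell with IR in control cells, by log2 fold changes from -0.64 (Chek2) to -3.69 (Atr). Atm, the kinase gene, measured 55.4, 64.7 and 26.8 CPM in control (replicates 1 to 3, in order) against 5.08, 3.73 and 4.64 CPM in control_IR (replicates 1, 4 and 5). Atr, its counterpart for single-stranded DNA, was at 46.1, 51.1 and 23.8 CPM and then 3.09, 2.90 and 3.41 CPM. The treated libraries lay far below every control library for both kinase genes, and the lowest control library was replicate 3. Their log2 fold changes were -3.45 (SE 0.86, edgeR adjusted p = 0.00572) and -3.69 (SE 0.64, edgeR adjusted p = 0.000552). Topbp1 went from 296, 337 and 218 CPM to 27.8, 32.0 and 31.9 CPM (9.28-fold lower, log2 SE (the SE of the log2 fold change) 0.41, edgeR's adjusted p = 0.000118). Chek1, the kinase that ATR activates, went from 37.4, 32.2 and 31.9 CPM to 4.97, 8.83 and 8.59 CPM (4.52-fold lower, log2 SE 0.40, edgeR's adjusted p = 0.000833). Nbn, which encodes Nbs1, went from 31.6, 29.3 and 23.7 CPM to 6.07, 11 and 7.19 CPM (3.49-fold lower, log2 SE 0.39, edgeR's adjusted p = 0.00225). For each of these 3 genes the groups did not overlap. Rad50 fell 9.03-fold and Mre11a 2.28-fold, and Chek2, which acts downstream of ATM, fell 1.56-fold.

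The 6 genes that build the chromatin response at a break moved in both directions. H2ax, the histone gene whose product is phosphorylated there, was at 51.4, 41.8 and 59.8 CPM in control and 124, 105 and 112 CPM in control_IR. Every treated library exceeded every control library, a 2.22-fold rise (log2 fold change 1.15 ± 0.19 SE, edgeR's adjusted p = 0.000398). Mdc1, the scaffold that binds phosphorylated H2AX, went from 127, 124 and 133 CPM to 64.5, 60 and 59.5 CPM (2.09-fold lower, log2 SE 0.10, edgeR's adjusted p = 4.78e-05), the smallest p among the 36. Trp53bp1, which encodes the resection barrier 53BP1, went from 153, 141 and 121 CPM to 30.1, 34.2 and 36.5 CPM (4.11-fold lower, log2 SE 0.24, edgeR's adjusted p = 9.03e-05). Neither gene's groups overlapped. Rif1, the partner of 53BP1, fell from 191, 227 and 96.2 CPM to 7.63, 9.06 and 8.0 CPM. Of the ubiquitin ligase genes that act between MDC1 and 53BP1, Rnf168 fell 1.55-fold (edgeR adjusted p = 0.0444) and Rnf8 had overlapping groups (log2 fold change -0.35, edgeR adjusted p = 0.237).

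All 4 genes for end resection and helicases fell. Rbbp8, which encodes the resection factor CtIP, went from 58.8, 61.9 and 39.4 CPM to 4.33, 3.04 and 4.16 CPM (log2 fold change -3.80 ± 0.64 SE, edgeR's adjusted p = 0.000477). Exo1, the long-range exonuclease gene, went from 38.8, 53.8 and 48.8 CPM to 30, 26.5 and 24.6 CPM (1.75-fold lower, log2 SE 0.21, edgeR's adjusted p = 0.00661). The groups did not overlap for either, but the fall of Rbbp8 was far deeper. The RecQ helicase genes Wrn and Blm fell 18.5-fold and 8.92-fold, with Wrn down to a count of 31 in control_IR replicate 1. Low counts gathered at multiples of 4 in these data, so a count may stand for less than 1 read pair.

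Of the 6 homologous recombination genes 5 fell. Brca1 went from 144, 174 and 82.4 CPM to 12.9, 13.3 and 13.1 CPM (10.2-fold lower, log2 SE 0.55, edgeR's adjusted p = 0.000382). Brca2, the recombination mediator gene, went from 31.3, 44.7 and 15.4 CPM to 3.55, 3.96 and 3.01 CPM (8.70-fold lower, log2 SE 0.54, edgeR's adjusted p = 0.000527). The control libraries of both genes spread widely, with replicate 3 lowest, yet all lay above the treated ones. Rad54l, a DNA motor gene of recombination, went from 53.3, 53.8 and 48.5 CPM to 25.3, 29.7 and 29.6 CPM (1.84-fold lower, log2 SE 0.13, edgeR's adjusted p = 0.000258). Rad51c, a recombination mediator gene, was at 15.8, 13.4 and 13.4 CPM and then 9.59, 12.3 and 12.7 CPM. Its treated libraries were all lower, but the difference missed the threshold (log2 fold change -0.30 ± 0.16 SE, edgeR's adjusted p = 0.148). Bard1, the partner of BRCA1, fell 2.10-fold and Palb2, the bridge from BRCA1 to BRCA2, 2.57-fold.

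The 3 Fanconi anaemia genes fell, Fancd2 and Fanci, which form the monoubiquitinated pair of that pathway, by more than the core complex gene Fanca (1.37-fold, edgeR adjusted p = 0.0315). Fancd2 went from 49.3, 52.3 and 34.6 CPM to 6.39, 10.6 and 9.20 CPM (5.19-fold lower, log2 SE 0.33, edgeR's adjusted p = 0.000174), and Fanci fell 3.91-fold. Msh6 fell 4.45-fold (log2 fold change -2.15 ± 0.28 SE, edgeR's adjusted p = 0.000122).

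End joining genes divided by subunit. Neither Ku gene passed on the count scale. Xrcc6 was at 140, 137 and 133 CPM in control and 128, 136 and 121 CPM in control_IR, and Xrcc5, the larger subunit, at 39.4, 33.3 and 36.8 CPM and 21.6, 33.1 and 25.8 CPM. The groups of Xrcc6 overlapped and those of Xrcc5 did not (log2 fold changes -0.09 ± 0.10 SE, edgeR's adjusted p = 0.493, and -0.44 ± 0.18 SE, edgeR's adjusted p = 0.0608). In FPKM, however, Xrcc6 was called lower (-0.56 on the log2(FPKM + 1) scale, limma adjusted p = 0.00122), and without control_IR replicate 4 so was Xrcc5 on the count scale (log2 fold change -0.64, edgeR adjusted p = 0.0177), as it was without any one sgRnf19a_IR library. Prkdc, which encodes the catalytic subunit of DNA-PK, went from 42.9, 49.3 and 22.2 CPM to 3.73, 3.93 and 2.84 CPM (10.9-fold lower, log2 SE 0.64, edgeR's adjusted p = 0.000847). The ligation pair Lig4 and Xrcc4 fell 4.91-fold and 2.72-fold, Lig4 from 6.72, 6.54 and 6.28 CPM to 0.639, 1.81 and 1.5 CPM (18 counts in control_IR replicate 1). Polq, the polymerase of theta-mediated end joining, went from 29.2, 35.6 and 20 CPM to 2.77, 3.47 and 2.55 CPM (9.65-fold lower, log2 SE 0.56, edgeR's adjusted p = 0.000532). Of the nick-sealing pair, Lig3 fell 2.0-fold and its scaffold Xrcc1 had a log2 fold change of 0.46 that did not pass (edgeR adjusted p = 0.0710). In the FPKM unit, on the log2(FPKM + 1) scale with limma, 34 of the 36 fell and 1 rose, where 47.3% of all genes fell and 16.6% rose and their median moved to -0.34. Upper-quartile scaling moved that median to 0.19, with 28 falls and 2 rises among the 36, where 21.9% of all genes fell and 28.2% rose. When each of the 12 libraries was left out in turn, 28 of the 31 calls were kept every time; the calls of Rnf168, Fanca and Xrcc4 were lost in 8, 3 and 2 of these fits, with edgeR adjusted p up to 0.156, 0.160 and 0.0637. The libraries whose omission cost a call were control replicates 1, 2 and 3, control_IR replicates 1, 4 and 5 and, for Rnf168 alone, sgRnf19a replicates 1, 2 and 3.

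**Figure D2:**
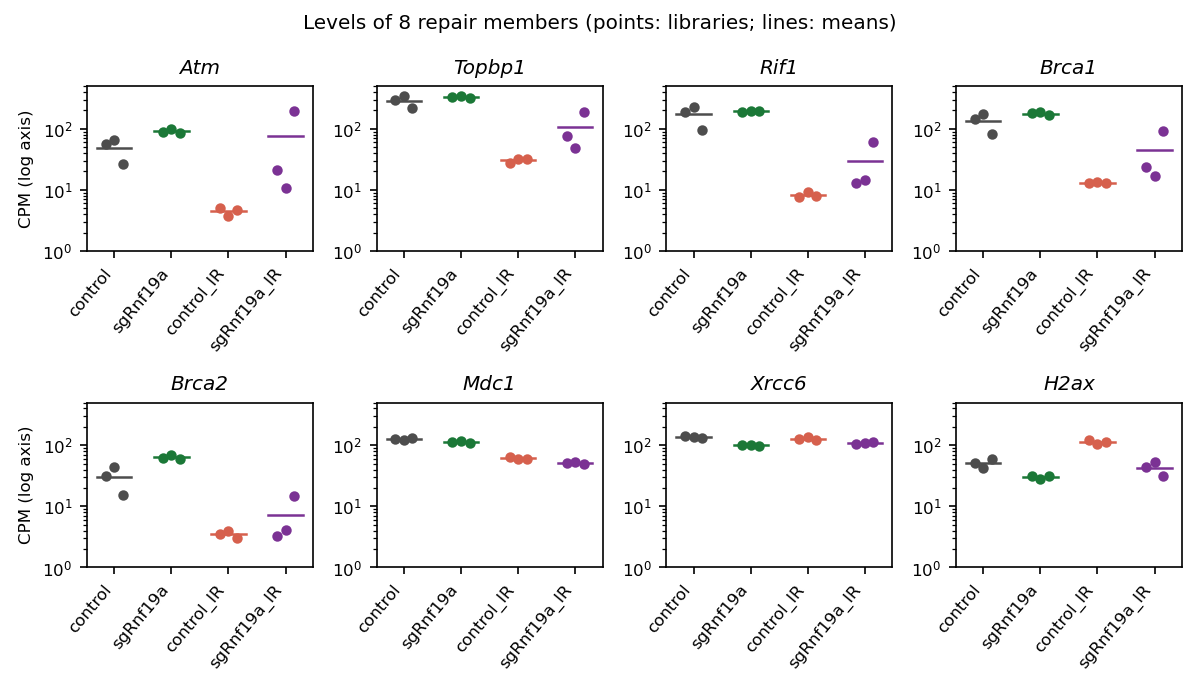
CPM on a log axis of 8 of the genes in each library (points) with the group mean (line). Atm, Topbp1, Rif1, Brca1 and Brca2 were low in control_IR and spread widely in sgRnf19a_IR, Mdc1 was low in both treated groups, Xrcc6 was between 97.8 and 140 CPM throughout, and H2ax was highest in control_IR.

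The falls were larger for longer transcripts. All 11 repair genes over 6 kb fell with IR in control cells (median log2 fold change -3.35), as did 61.1% of the 1947 protein-coding genes of that length (median -1.15). Of 13 between 4 and 6 kb, 12 fell (median -1.97), against 44.8% and -0.50 for protein-coding genes. Of 10 between 2 and 4 kb, 6 fell (median -0.76), against 24.1% and 0.02. The 2 genes under 2 kb were H2ax, which rose, and Xrcc4, which fell, where 50.1% of protein-coding genes of that length rose. In the classes over 2 kb the repair genes' medians thus lay below those of protein-coding genes of like length. Across the 36 genes, Spearman's rho of the log2 fold change was -0.57 with transcript length and 0.67 with GC content, and -0.46 and 0.45 across the 13983 protein-coding genes; genes share libraries and are no independent replicates.

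**Figure D3:**
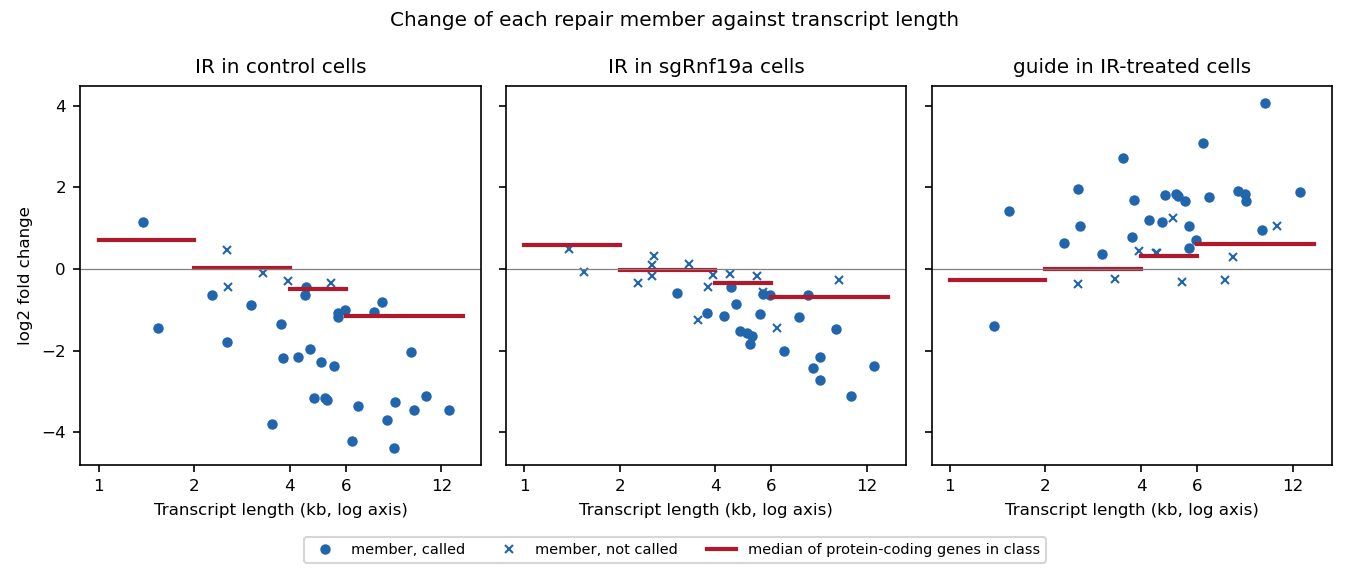
Log2 fold change of each of the 36 genes against transcript length (log axis) in 3 comparisons (IR with sgNC, IR with sgRnf19a, and the guide after IR); filled points were called, crosses were not, and red lines are medians of protein-coding genes by length class. With IR the points slope down with length and mostly lie under the red lines; with the guide in treated cells most lie above them.

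A refit that removed smooth trends with transcript length and GC content from each library (18159 genes) kept 20 of the 30 falls. In that fit 3 of the 36 genes were higher and 20 lower, where 23.1% of all genes were higher and 16.4% lower, and the median was -0.69. The largest corrected falls were those of Wrn (log2 fold change -2.45, SE 0.36), Rbbp8 (-2.30, SE 0.36), Topbp1 (-2.18, SE 0.26), Brca1 (-2.12, SE 0.36) and Rif1 (-2.08, SE 0.24), with edgeR adjusted p from 6.38e-05 to 0.000539. The rise of H2ax was not called after the correction (log2 fold change 0.24, edgeR adjusted p = 0.129). Calls were also lost for Mre11a, Atm, Chek2, Bard1, Fanca, Xrcc4, Lig4 and Lig3, with Atm at -1.48 (SE 0.57, edgeR adjusted p = 0.0589). The signs of Rnf168 and Exo1 turned, to 0.56 (edgeR adjusted p = 0.00845) and 0.44 (edgeR adjusted p = 0.0172), and Rad51c was called higher at 0.79 (edgeR adjusted p = 0.00309). How much of a trend with length is technical was not tested.

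**Figure D4:**
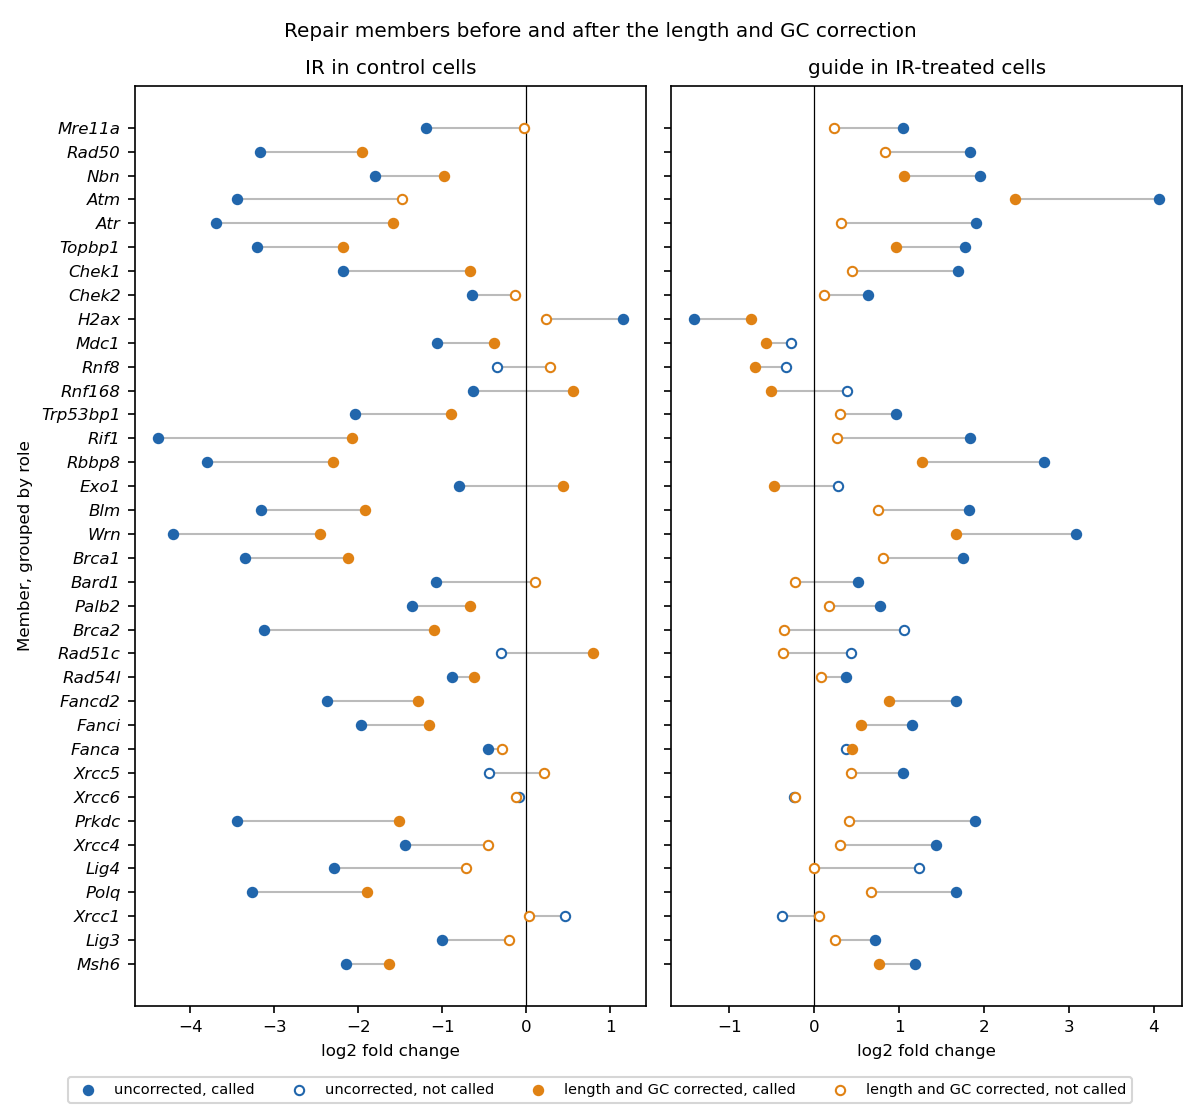
Log2 fold change of each of the 36 genes before (blue) and after (orange) the correction for transcript length and GC content, for IR in control cells (left) and the guide after IR (right); filled points were called at an adjusted p under 0.05. The correction drew most values towards 0. After it 3 rises and 20 falls were called in the left panel and 9 rises and 5 falls in the right one. Of those in the right panel, 1 rise and 4 falls were not called before it.

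In sgRnf19a cells IR went with lower levels of 21 of the 36 genes and higher levels of none, where 17.6% of all genes fell and 18% rose by edgeR's quasi-likelihood test. The median log2 fold change was -0.76, against -0.02 for all genes. By length, 9 of the 11 repair genes over 6 kb, 10 of 13 between 4 and 6 kb and 2 of 10 between 2 and 4 kb fell. Of protein-coding genes in these classes, 50%, 32.3% and 15.3% fell. Homologous recombination genes (5 of 6), Fanconi anaemia genes (3 of 3) and Msh6 fell, while break sensing and checkpoint genes fell in 3 of 8 cases and the others there did not pass. The deepest fall was that of Brca2, from 62.0, 68.4 and 59.9 CPM in sgRnf19a replicates 1, 2 and 3 to 3.23, 4.14 and 14.5 CPM in sgRnf19a_IR replicates 1, 3 and 4 (8.71-fold lower, log2 SE 0.53, edgeR's adjusted p = 0.000902). All treated libraries lay below all untreated ones, and replicate 4 was the highest of them.

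Replicate 4 set the spread of the treated sgRnf19a group for many of the genes. Atm was at 89.9, 97.4 and 85.2 CPM untreated and at 21.3, 10.8 and 192 CPM treated, so that 2 treated libraries lay below all untreated ones and replicate 4 above them. The test was not passed (log2 fold change -0.28 ± 0.77 SE, edgeR's adjusted p = 0.812), and without replicate 4 it was a fall (log2 fold change -2.50 ± 0.36 SE, edgeR's adjusted p = 0.000112). Chek1 was at 33.7, 30.9 and 34.5 CPM untreated and 15.5, 12.9 and 44.3 CPM treated, and Nbn at 37.5, 34.5 and 34 CPM and 21.1, 16.9 and 55.6 CPM. Both had the same pattern as Atm, and both were called lower without replicate 4 (log2 fold changes -1.22 and -0.90, edgeR adjusted p = 0.000467 and 0.00503). Rbbp8 was at 57.8, 62.3 and 58.0 CPM untreated and 11.5, 7.11 and 56.8 CPM treated (log2 fold change -1.24, edgeR adjusted p = 0.115; -2.67 and 5.87e-06 without replicate 4). Without this library 28 of the 36 genes fell and 2, H2ax and Xrcc1, rose, where 24.4% of all genes fell and 21.2% rose, and the median was -1.23.

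Other genes fell in each treated library. Atr went from 60.7, 63.9 and 66.1 CPM to 4.71, 4.04 and 26.5 CPM (5.40-fold lower, log2 SE 0.59, edgeR's adjusted p = 0.00784). Topbp1 went from 332, 339 and 316 CPM to 75.2, 48.5 and 191 CPM (3.14-fold lower, log2 SE 0.39, edgeR's adjusted p = 0.00622). Both groups were apart, with replicate 4 again the highest treated library; without it the log2 fold changes were -3.86 and -2.42. Mdc1 went from 115, 117 and 110 CPM to 50.5, 52.5 and 49.2 CPM (2.25-fold lower, log2 SE 0.10, edgeR's adjusted p = 2.37e-05), with no such spread. Trp53bp1 went from 180, 195 and 171 CPM to 62.8, 40.9 and 91.8 CPM (2.80-fold lower, log2 SE 0.24, edgeR's adjusted p = 0.000641). H2ax was at 31.2, 27.8 and 31.3 CPM untreated and 43.7, 52.5 and 31.6 CPM treated. All treated libraries were higher, but the difference missed the threshold (log2 fold change 0.50 ± 0.19 SE, edgeR's adjusted p = 0.0563; 0.67 and 0.00285 without replicate 4).

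Among recombination genes, Brca1 went from 178, 185 and 169 CPM to 23.8, 16.6 and 91.9 CPM (4.02-fold lower, log2 SE 0.51, edgeR's adjusted p = 0.0100). Rad54l went from 55.7, 53.6 and 56.2 CPM to 33.5, 33.2 and 42.9 CPM (1.51-fold lower, log2 SE 0.13, edgeR's adjusted p = 0.00479). Both groups stayed apart. Rad51c was at 17.1, 18.5 and 16.6 CPM untreated and 16.4, 13.0 and 17.3 CPM treated, which overlapped (log2 fold change -0.16, edgeR adjusted p = 0.478). Exo1 went from 54.3, 52.1 and 48.3 CPM to 29.1, 24.8 and 44.5 CPM (1.57-fold lower, log2 SE 0.20, edgeR's adjusted p = 0.0275). Fancd2 went from 60.8, 62.1 and 56.8 CPM to 22.6, 16.5 and 44.2 CPM (2.16-fold lower, log2 SE 0.32, edgeR's adjusted p = 0.0175). In both genes replicate 4 was nearest to the untreated level. Without that library Brca1 was 8.82-fold, Brca2 17.4-fold, Rad54l 1.66-fold, Exo1 1.92-fold and Fancd2 3.07-fold lower.

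Among end joining genes, Prkdc went from 67.2, 67.6 and 65.7 CPM to 4.48, 5.14 and 29.2 CPM (5.15-fold lower, log2 SE 0.60, edgeR's adjusted p = 0.00951). Polq went from 41.8, 43.7 and 39.3 CPM to 5.31, 2.93 and 19.7 CPM (4.46-fold lower, log2 SE 0.53, edgeR's adjusted p = 0.00798). Without replicate 4 their falls were 14-fold and 10.1-fold. The Ku genes did not pass. Xrcc5 was at 45.8, 41.9 and 46.7 CPM untreated and 58.9, 43.8 and 64.0 CPM treated, with overlap (log2 fold change 0.31 ± 0.18 SE, edgeR's adjusted p = 0.203). Xrcc6 was at 101, 101 and 97.8 CPM and 106, 109 and 111 CPM, with the treated libraries all slightly higher (log2 fold change 0.12 ± 0.10 SE, edgeR's adjusted p = 0.392). In FPKM the sign of Xrcc6 turned (-0.32 on the log2(FPKM + 1) scale, limma adjusted p = 0.0310). On that scale the median of all genes was -0.40 in this comparison, with 6304 of 12753 called lower and 1810 higher. With the length and GC correction 20 genes were lower and 1, Xrcc5, higher, where 17.2% of all genes were lower and 17.7% higher; 18 of the 21 falls were kept, those of Exo1, Bard1 and Fanca were not, and Rbbp8 and Wrn were called lower. When single libraries were left out, 14 of the 21 falls were kept every time; those of Fanca, Blm, Exo1, Fanci, Bard1, Lig4 and Fancd2 were lost in 6, 4, 4, 4, 2, 2 and 1 of 12 fits, the largest edgeR adjusted p being 0.133, 0.114, 0.108, 0.0732, 0.0750, 0.0833 and 0.0737. The counts of falls were 18, 15 and 19 without sgRnf19a replicates 1, 2 and 3, 15 and 17 without sgRnf19a_IR replicates 1 and 3, and 20 without control_IR replicate 1 or 4. Falls over all genes were fewer too, from 3209 of 18183 with every library. In the same order they numbered 2401 of 18281, 2175 of 18239, 2380 of 18306, 2323 of 19478, 2613 of 19537, 3136 of 19505 and 3090 of 19509.

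Few of these genes differed with the guide in untreated cells. By edgeR's quasi-likelihood test 2 of 36 fell and none rose, where 3.2% of all genes fell and 3.02% rose, and the median log2 fold change was 0.29 (0.03 for all genes); it was 0.16 without control replicate 3 and 0.15 after the length and GC correction. At an unadjusted p under 0.05, 3 were lower and 2 higher, where 8.95% of all genes were lower and 7.97% higher. The 2 were H2ax, at 51.4, 41.8 and 59.8 CPM in control and 31.2, 27.8 and 31.3 CPM in sgRnf19a, and Xrcc6, at 140, 137 and 133 CPM and 101, 101 and 97.8 CPM. Neither gene's groups overlapped (H2ax 1.70-fold lower, log2 SE 0.19, edgeR's adjusted p = 0.0323; Xrcc6 1.37-fold lower, log2 SE 0.10, edgeR's adjusted p = 0.0200). Both falls were called after the length and GC correction too (log2 fold changes -0.47 and -0.43, edgeR adjusted p = 0.0260 and 0.0209), together with a rise of Brca2 (0.95, edgeR adjusted p = 0.0469); in that fit 1 of 36 was higher and 2 lower, against 4.13% and 3.79% of all genes. Both calls were easily lost. Leaving out 1 library cost that of H2ax in 7 of 12 fits and that of Xrcc6 in 6, with edgeR adjusted p up to 0.146 and 0.0980. The log2 fold changes stayed between -0.89 and -0.63 for H2ax and between -0.53 and -0.44 for Xrcc6. The libraries whose omission cost a call were control replicates 1 and 3 and sgRnf19a replicates 1, 2 and 3 for both genes, control replicate 2 for Xrcc6, and control_IR replicates 4 and 5 for H2ax.

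Most of the other 34 genes had somewhat higher means in untreated sgRnf19a cells. Of the 36, 29 had a log2 fold change above 0, and the change rose with transcript length (rho 0.53 over the 36 genes, 0.17 over protein-coding genes). Over 6 kb the median was 0.41 for the 11 repair genes and 0.14 for protein-coding genes, so long genes in general lay somewhat above 0. Brca2 had the highest, from 31.3, 44.7 and 15.4 CPM to 62.0, 68.4 and 59.9 CPM (log2 fold change 1.06 ± 0.49 SE, edgeR's adjusted p = 0.299). Atm came next among the kinase genes, from 55.4, 64.7 and 26.8 CPM to 89.9, 97.4 and 85.2 CPM (0.89 ± 0.77 SE, edgeR's adjusted p = 0.645), and Prkdc had 0.81 (SE 0.57, edgeR adjusted p = 0.547). The libraries of each of these 3 did not overlap, and the control group, with its low replicate 3, was the more scattered. Without sgRnf19a_IR replicate 4, a library of another group that adds to the shared estimate of spread, Brca2, Mre11a and Prkdc were called higher in this comparison.

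Between the treated groups, 25 of the 36 genes were higher with the guide and 1 was lower, where 21% of all genes were higher and 12.8% lower by edgeR's quasi-likelihood test. The median log2 fold change was 1.10 (0.07 for all genes). By length, 8 of the 11 repair genes over 6 kb, 9 of 13 between 4 and 6 kb and 7 of 10 between 2 and 4 kb were higher. Of protein-coding genes in these classes, 43.4%, 33.9% and 22.5% were higher, so the share of all genes is a low yardstick for long genes. All 8 break sensing and checkpoint genes were higher, from 1.55-fold for Chek2 to 16.7-fold for Atm (log2 fold change 4.06 ± 0.88 SE, edgeR's adjusted p = 0.00541), whose treated values are given above as 5.08, 3.73 and 4.64 CPM with sgNC and 21.3, 10.8 and 192 CPM with sgRnf19a. Wrn was at 1.10, 2.12 and 1.88 CPM in control_IR and at 7.68, 4.17 and 32.0 CPM in sgRnf19a_IR (8.54-fold higher, log2 SE 0.63, edgeR's adjusted p = 0.00398), and Rbbp8 was 6.55-fold higher. Nbn was 3.86-fold, Chek1 3.25-fold, Fancd2 3.18-fold, Xrcc5 2.07-fold and Trp53bp1 1.94-fold higher. The libraries of each did not overlap, whereas those of Blm and Polq, also called, did. H2ax was lower, at 43.7, 52.5 and 31.6 CPM against 124, 105 and 112 CPM (2.66-fold, log2 fold change -1.41 ± 0.19 SE, edgeR's adjusted p = 0.000378).

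One library weighed on the size of these differences. Without sgRnf19a_IR replicate 4 the median was 0.56, with 15 genes higher and 1 lower, where 15.9% of all genes were higher and 9.47% lower. The log2 fold change of Atm was then 1.85 (SE 0.34, edgeR adjusted p = 0.00204), that of Wrn 1.80, that of Rbbp8 1.29 and that of Nbn 1.23, while that of H2ax was -1.24 and that of Xrcc5 0.94. Calls were lost for Atr, Bard1, Blm, Brca1, Palb2, Polq, Prkdc, Rad54l, Rif1 and Xrcc4; the same 10 calls were lost without control_IR replicate 1 or 5, and 8 of them without control_IR replicate 4. The calls of Bard1, Palb2 and Rad54l were also lost without control replicate 1 or 3 or any untreated sgRnf19a library, that of Rad54l without control replicate 2, and those of Bard1 and Rad54l without sgRnf19a_IR replicate 1. The highest edgeR adjusted p in these fits was 0.281, for Prkdc, and 16 of the 26 calls were kept in every fit.

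**Figure D5:**
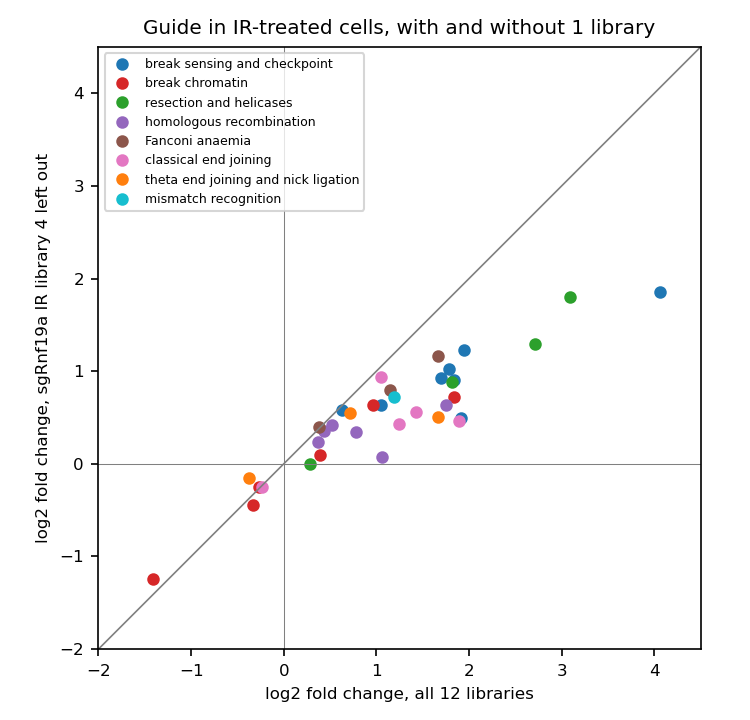
Log2 fold change between treated sgRnf19a and treated control cells for each of the 36 genes, fitted with all 12 libraries (horizontal) and without sgRnf19a_IR replicate 4 (vertical); the grey diagonal marks equal values and colours mark roles. Most points lie below the diagonal, Atm moving from 4.06 to 1.85, while H2ax stays near it.

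After the length and GC correction 9 genes were higher and 5 lower between the treated groups, where 10.2% of all genes were higher and 14.5% lower, with a median of 0.30. Of the 25 rises, 8 were kept: Atm (log2 fold change 2.37 ± 0.59 SE, edgeR's adjusted p = 0.0126), Wrn (1.67), Rbbp8 (1.27), Nbn (1.06), Topbp1 (0.97), Fancd2 (0.88), Msh6 (0.76) and Fanci (0.55). H2ax stayed lower (-0.74 ± 0.12 SE, edgeR's adjusted p = 0.000808). Mdc1 (-0.57), Rnf8 (-0.70), Rnf168 (-0.51) and Exo1 (-0.47) were called lower and Fanca (0.44) higher, none of which passed without the correction. The genes called lower after correction thus included 4 of the 6 of the chromatin response, H2ax, Mdc1, Rnf8 and Rnf168, with Trp53bp1 at 0.30 (edgeR adjusted p = 0.163) and Rif1 at 0.27 (edgeR adjusted p = 0.442). The same correction without sgRnf19a_IR replicate 4 called 4 of the 36 lower, where 1898 of 19189 genes were lower. Exo1 was among those 4 and Rnf168 was not. Across the 36 genes the uncorrected change had a rho of 0.33 with length and -0.75 with GC content. Across the 13983 protein-coding genes these were 0.27 and -0.53.

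The difference between the IR responses, tested as an interaction, passed for none of the 36 genes by edgeR's quasi-likelihood test (smallest adjusted p = 0.112, for Wrn), where 0.544% of all genes were higher and 0.137% lower. At an unadjusted p under 0.05, 13 were higher and 1 lower, where 14.8% of all genes were higher and 6.44% lower. DESeq2 called 7 higher and none lower, where it called 7.11% of all genes higher and 2.17% lower. The median was 0.74 (0.09 for all genes), and over 6 kb it was 1.11 for the 11 repair genes and 0.56 for protein-coding genes. Of the 36 values, 32 were above 0, that is, towards a higher value of the IR change in sgRnf19a cells. The largest were those of Atm (log2 difference 3.17 ± 1.13 SE, edgeR's adjusted p = 0.151), Wrn (2.75, SE 0.82) and Rbbp8 (2.56 ± 0.82 SE, edgeR's adjusted p = 0.124), and the lowest that of H2ax (-0.65 ± 0.26 SE, edgeR's adjusted p = 0.192). Leaving out sgRnf19a_IR replicate 3 gave 12 higher and 1 lower, where 10.6% of all genes were higher and 2.82% lower. Leaving out replicate 4 gave none and a median of 0.22, with Atm at 0.96, Wrn at 1.45 and Rbbp8 at 1.13. After the length and GC correction the median was 0.00 and no gene passed, where 0.909% of all genes were higher and 0.677% lower. The larger number of falls in control cells is thus not shown to be a difference between the guides.

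Among 84 other genes of the pathway, with a median transcript length of 3.17 kb, changes with IR in control cells went both ways: 20 rose and 36 fell (median -0.29), where 22.2% of all genes rose and 25.7% fell, so the rises were near the share in all genes. Among the smallest p were those of rises of Rad1, a subunit of the checkpoint clamp (2.77-fold), Shld1, of the shieldin complex (4.96-fold), and Fen1, the flap endonuclease gene (2.24-fold), and of falls of Fancb (7.93-fold) and Clspn, the ATR mediator claspin (5.91-fold). Their edgeR adjusted p ran from 5.96e-05 to 0.000199, and each kept its direction after the length and GC correction. By length, 9 of 15 under 2 kb rose and 1 fell, 15 of 20 between 4 and 6 kb fell and 2 rose, and all 4 over 6 kb fell. Of protein-coding genes under 2 kb, 50.1% rose and 5.9% fell, so the short pathway genes were near those shares. Between 4 and 6 kb 44.8% fell and 8.79% rose, and over 6 kb 61.1% fell.

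The same 84 genes gave 16 rises and 25 falls with IR in sgRnf19a cells (median -0.35), 3 and 1 with the guide in untreated cells, 31 and 11 with the guide in treated cells, and none for the difference between responses. The shares of all genes higher and lower were 18% and 17.6%, 3.02% and 3.2%, and 21% and 12.8% in the first 3 of these comparisons, so the rises with IR and the counts in untreated cells were near or below them. With IR in sgRnf19a cells the smallest p were those of Rpa3, a subunit of the single-strand binding protein (3.57-fold higher), Fen1 (1.85-fold) and the end joining factor gene Nhej1 (3.13-fold), and of the lower Slx4, a nuclease scaffold (2.07-fold), Clspn (3.79-fold) and Xrcc3, a recombination gene (2.05-fold). Between the untreated groups Fancl (2.21-fold), Fancg (1.71-fold) and Parp3 (1.44-fold) were higher with the guide and Rpa1 (1.44-fold) was lower, with edgeR adjusted p from 0.0131 to 0.0443. In treated cells Fancl, the ubiquitin ligase of the Fanconi anaemia pathway, was 5.35-fold higher, Fancb 4.30-fold and Hus1 2.63-fold, while Polm was 1.74-fold, Tonsl 2.0-fold and Cdc25b 1.66-fold lower.

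Cell cycle readings moved beside these results, and their part in them was not tested. Against 22.2% of all genes rising and 25.7% falling with IR in control cells, 7 of 13 S phase genes rose and 3 fell, their sum going from 2700 to 3190 CPM to 3950 to 4310 CPM. Of 10 genes of G2 and M phase 6 fell and 1 rose, from a sum of 2510 to 3920 CPM to 1380 to 1440 CPM. Of 8 p53 target genes 6 rose and 2 fell. In sgRnf19a cells the counts of rises and falls with IR were 5 and 2 for S phase, 1 and 5 for G2 and M phase and 5 and 0 for p53 targets, where 18% of all genes rose and 17.6% fell. For 15 of the 36 genes an exon overlaps a gene on the opposite strand, among them H2ax, Xrcc6, Trp53bp1, Brca2, Fancd2 and Rbbp8, and since it is not stated whether counting used strand, reads of the 2 genes cannot be told apart there.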

How the data were processed

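The members and gene lists, and the settings compared, were chosen with earlier results of these data known. Per the labels' protocols, ribosomal RNA was depleted and strand-marked libraries were read as 37 bp pairs after 12 PCR cycles; the submitters' processing notes name Bowtie2, HTSeq, DESeq2 and the builds mm10 and GRCm39, while their versions, their roles and any use of strand were not stated there. The authors deposited whole-number counts per gene and, separately, FPKM values. Among genes longer than 2 kb, low counts gathered at multiples of 4 (5780 values of 4, against 941 each of 3 and of 5), so the deposited counts were treated as estimated counts. A further 12 per-sample columns were not used. Coordinates are those of the FPKM table; lengths and GC contents were read from the GENCODE M21 annotation of mm10.

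Genes were filtered with filterByExpr (count 10, total 15), TMM-scaled, and modelled jointly in the 12 libraries by edgeR 4.0.16 (glmQLFit robust, glmQLFTest, 2-sided) in R 4.3.3, with Benjamini-Hochberg adjustment over all genes and calls at an adjusted p under 0.05. Each SE is the absolute log2 fold change over the root of the F statistic. The 5 comparisons were IR in each genotype, the guide without and with IR, and their interaction. Named genes are all 36 members by role, with values in every library for 19 set members and any called against the majority, and of other pathway genes up to 3 of smallest p per direction; some results under this rule are not reported here. Alternatives were DESeq2 1.42.0, other size factors, filters (none, 1 CPM in 3 libraries, protein-coding only), fitting 2 groups alone, a minimum absolute log2 fold change of 1, a replicate block, limma 3.58.1 on log2(FPKM + 1) or + 0.1 (mean of at least 0.5, or no filter), counts divided by 4, per-library splines (5 degrees of freedom) on length or on length and GC content, and each library left out. Every pair of libraries of a group differed by more than counting noise. On data simulated to carry trends with transcript length and GC content, the uncorrected fit called many unchanged genes and the fit with length and GC splines few. Those trends were made with the same splines that the fit removes, so this checks the code alone. It cannot show that the correction is right for the real libraries, where the trends' origin was not tested. Fold changes on FPKM understate low genes. Figures were drawn with matplotlib 3.10.9.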

Additional observations from a re-analysis of the deposited data

How the results depend on the processing

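The number of repair genes called with IR in control cells stayed within 1.5 times of 31 under every alternative run, and that with IR in sgRnf19a cells (21) under all but one, only the 2 groups compared (9). That fit called 2576 higher and 1842 lower of 16886 genes, against 3266 and 3209 of 18183 in the main fit. For the guide in untreated cells (2 called) the count was 1 with no filter or with length splines, 5 with only the 2 groups, 0 with an absolute log2 fold change of at least 1, and 0 to 5 without single libraries. For the guide in IR-treated cells (26 called) it was 7 with only the 2 groups, 15 on log2(FPKM + 1), 4 on that scale with no filter, 14 with length and GC splines, and 16 to 29 without single libraries. All genes higher and lower numbered 1639 and 1158 of 15307 with only the 2 groups, and 1856 and 2625 of 18159 with length and GC splines. On log2(FPKM + 1) they numbered 2537 and 2454 of 12753, and 1381 and 1571 of 29549 with no filter. Without control_IR replicate 1 (16 called) they numbered 2459 and 1418 of 19505. Without sgRnf19a_IR replicate 3 (29 called) they numbered 4443 and 3169 of 19537. For the difference between IR responses (0 called) it was 7 with DESeq2 and 0 to 13 without single libraries. DESeq2 called 1293 of 18183 genes higher and 395 lower. Without sgRnf19a_IR replicate 3 (13 called) 2073 of 19537 genes were higher and 551 lower. A fit chosen after seeing the data, the length and GC splines without sgRnf19a_IR replicate 4, gave 25, 24, 9, 11 and 1 in the 5 comparisons. Of its 19189 genes, those higher and lower numbered 4662 and 3344, 4129 and 3495, 1141 and 1103, 1540 and 1898, and 206 and 172.

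Among genes called before or after the change of setting, these signs turned, and the cause was not tested; signs also turned for genes called in neither fit, such as Rnf8 (-0.35 to 0.55 with length splines, IR in control cells). For IR in control cells length splines gave Mdc1 0.09, Rnf168 0.09, Exo1 0.40, Fanca 0.29 and Xrcc6 0.34; with GC content added they gave Rnf168 0.56, Exo1 0.44, Bard1 0.10 and Rad51c 0.79, and without sgRnf19a_IR replicate 4 also 0.53, 0.40, 0.07 and 0.76. For IR in sgRnf19a cells FPKM gave Xrcc6 -0.32 (pseudocount 1, with or without the filter) and -0.34 (pseudocount 0.1), and the length and GC splines without that library gave Rad51c 0.46. For the guide in IR-treated cells length and GC splines gave Rnf168 -0.51, Exo1 -0.47 and Bard1 -0.23, and without that library Atr -0.26, Rif1 -0.01, Exo1 -0.48, Bard1 -0.09, Palb2 -0.02, Prkdc -0.21 and Polq -0.03.

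With the replicate number as a block, 33, 27, 2, 30 and 10 genes were called in the 5 comparisons, where the last was 0 without it. Calls over all genes grew there too, to 1972 higher and 795 lower of 18183, against 99 and 25 without the block. In the first 4 comparisons the block gave 4162 and 4758, 3367 and 4232, 791 and 855, and 4075 and 3282. Deviations of libraries sharing a number correlated at -0.19, 0.08 and 0.17 between the untreated groups and, by column number, at 0.02 and 0.29 between the treated ones, so the numbers are not shown to pair the samples. Depth limits the lowest genes most: Lig4 had 18 counts in control_IR replicate 1, and fewer read pairs if a pair gave 4 counts.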
